A study of Mus musculus and Homo sapiens with 24 samples.

Results

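The genes described here are the G1 cyclins, the kinases that the D-type cyclins activate and the retinoblastoma (RB) family: CCND1, CCND2, CCND3, CCNE1, CCNE2, CDK4, CDK6, RB1, RBL1 and RBL2. They were picked by symbol, ignoring case, so that the same 10 genes were followed in a human and a mouse muscle line. Each of the 10 was found once among the 58735 gene rows of the human table and once among the 56748 gene rows of the mouse table. All 10 passed the filter on low counts in both lines.

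D-type cyclins are made when growth factors are present and bind CDK4 or CDK6; these complexes, followed by cyclin E with its partner kinase, phosphorylate the RB proteins. Unphosphorylated RB proteins hold E2F transcription factors in check, and phosphorylation frees the E2Fs to switch on the genes of DNA replication. In skeletal muscle, leaving this cycle for good is part of forming myotubes, and RB1 is known for keeping differentiated muscle cells out of S phase.

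LHCN-M2 is a human skeletal myoblast line immortalised with added TERT and CDK4, and C2C12 is a mouse skeletal myoblast line. Polyadenylated RNA was sequenced from 24 libraries in 6 groups of 4, taken along differentiation: LHCN-M2 at days 0, 1 and 12 and C2C12 at days 0, 1 and 6. Every library carries the genotype label control and no treatment is named, so the groups differ in line and in day alone as far as the labels go. The labels name neither the promoter of the added genes nor separate cultures for the replicates. The p-values therefore speak only of how much the libraries at hand vary, and that variation could be technical. With 1 line per species, species and line cannot be told apart, and the last days (12 and 6) are not the same time. Reads from the added CDK4 and from the cells' own CDK4 gene cannot be told apart either.

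Library totals ran from 33030258 to 48546621 counts in LHCN-M2 and from 32795699 to 43827517 in C2C12. TERT, the other gene added to LHCN-M2, averaged 1161, 528 and 683 CPM (counts scaled to the TMM-adjusted library total) on its 3 days. Mouse Tert averaged 0.801 CPM in C2C12 at day 0. The summed level of 10 myoblast and myotube markers ran over 1023 to 1335, 2474 to 2855 and 6596 to 6997 CPM in LHCN-M2 at days 0, 1 and 12, with MYOG and MYMK at 0 counts at day 0. In C2C12 the same sum ran over 299 to 314, 499 to 537 and 3091 to 3310 CPM at days 0, 1 and 6. Against day 0, 9 of the 10 were higher and 1 lower in LHCN-M2 at both later days. In C2C12 all 10 were higher at both later days. Over all LHCN-M2 genes tested, 23.4% were higher and 23.5% lower at day 1, and 27.1% and 27.5% at day 12. Over all C2C12 genes tested, 25.9% were higher and 24.4% lower at day 1, and 33.1% and 32.5% at day 6. Of the other marker lists, the 8 fibroblast genes summed to 10544 to 10916, 14561 to 16871 and 24497 to 25542 CPM in LHCN-M2 (0 of 8 at 0 counts), and to 15173 to 17613, 15081 to 16239 and 10973 to 11441 CPM in C2C12 (Thy1 at 0 counts at days 0 and 6). Against day 0, 7 of these 8 were higher and 1 lower in LHCN-M2 at both later days. Of 7 tested in C2C12, 3 were higher and 3 lower at day 1, and 2 were higher and 4 lower at day 6. The 5 smooth muscle genes summed to 234 to 382, 356 to 388 and 782 to 857 CPM in LHCN-M2 and to 1609.7 to 1762, 2419 to 3108 and 1336 to 1533 CPM in C2C12. Endothelial and immune genes (6) summed to at most 16.2 CPM in any library, and adipocyte genes (5) to at most 9.31 CPM in LHCN-M2 and 144 CPM in C2C12. The part of other cell types in the results below was not tested. Replicate 2 of LHCN-M2 day 0 stood apart from its group, at -72.5 on the third principal component (5.87% of the variance) against 19.1 to 29.9 for the other day 0 libraries. Replicate 1 of LHCN-M2 day 12 lay at -22.3 against 4.41 to 9.27. TERT was lowest in these libraries, at 688 CPM against 1173 to 1434 in the others of day 0. At day 12 it stood at 535 CPM against 720 to 751 in the others. Fold changes of members that rest on either library are given with and without it.

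Promoter sequence was at hand for the mouse genes only, where 6 of the 10 members matched 7 RefSeq promoters (build GRCm38.p6), each running from 250 bases before to 50 bases after the start. Letters of an E2F element (TTTCCCGC, TTTCGCGC, TTTGCCGC or TTTGGCGC, on either strand) occurred in 1 of these, that of Rbl1, the gene of the RB-family protein p107. The promoter of Cdk4 held 4 copies of the E-box letters CACGTG, which read the same on both strands and which MYC-family factors can bind. Both are shown for these letters, and they are mouse sequences that say nothing of the human promoters. RBL1, the RB-family gene with the largest fold change in LHCN-M2, fell there (log2 fold change -1.88 at day 12 against day 0). In C2C12, by contrast, Rbl1 rose by 0.45 and Cdk4 by 0.32 at day 6 against day 0. Any link between the letters and these changes was not tested. Capitals mark the E2F letters in the first sequence and the E-boxes in the second.

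Rbl1 promoter, chr2:157204485-157204784, minus strand: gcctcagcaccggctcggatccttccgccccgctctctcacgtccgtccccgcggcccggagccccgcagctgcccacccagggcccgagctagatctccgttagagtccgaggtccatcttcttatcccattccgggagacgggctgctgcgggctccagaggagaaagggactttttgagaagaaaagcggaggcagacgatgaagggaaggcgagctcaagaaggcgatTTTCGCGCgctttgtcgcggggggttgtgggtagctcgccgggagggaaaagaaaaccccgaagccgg

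Cdk4 promoter, chr10:127063285-127063584, plus strand: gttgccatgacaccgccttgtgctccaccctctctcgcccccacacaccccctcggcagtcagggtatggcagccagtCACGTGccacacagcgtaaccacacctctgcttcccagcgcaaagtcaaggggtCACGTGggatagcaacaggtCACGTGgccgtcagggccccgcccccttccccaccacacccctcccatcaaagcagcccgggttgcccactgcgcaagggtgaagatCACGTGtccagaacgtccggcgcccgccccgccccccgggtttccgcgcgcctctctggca

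Counting the start as +1, the Rbl1 match began at -18, and the Cdk4 matches began at -172, -118, -98 and -11. Cdk6 had 1 E-box, at -220, and the promoters of Ccne1, Rbl2 and Ccnd3 (2 starts) held neither motif. Of all 32851 mouse promoters of this length in the table, 744 (2.26%) held the E2F letters and 2349 (7.15%) the E-box, while 8 (0.0244%) held 4 or more E-boxes. A match is a description of these letters and not of a bound factor.

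In LHCN-M2 more of these genes fell than rose against day 0, and at day 12 CCND2, CDK6 and RBL2 were those that rose. At day 1 against day 0, 2 members rose, 4 fell and 4 were not called (edgeR's quasi-likelihood test, adjusted p below 0.05), where 46.9% of all tested genes were called, 23.4% higher and 23.5% lower. At day 12 against day 0, 3 rose, 6 fell and 1 was not called, where 54.6% of genes were called, 27.1% higher and 27.5% lower. The 6 include CCNE1, whose call was lost under some settings, as given below. The median log2 fold change of the members at day 12 was -0.49, and that of all genes tested was -0.01. In C2C12 most of them rose. At day 1 against day 0, 5 rose, 1 fell and 4 were not called, where 50.3% of genes were called, 25.9% higher and 24.4% lower. At day 6 against day 0, 8 rose, 1 fell and 1 was not called, where 65.6% of genes were called, 33.1% higher and 32.5% lower. The median of the members at day 6 was 0.40, against -0.03 over all genes tested. With so many genes called in each line, a called member is a common event, and the sizes and directions below carry the description.

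**Figure D1:**
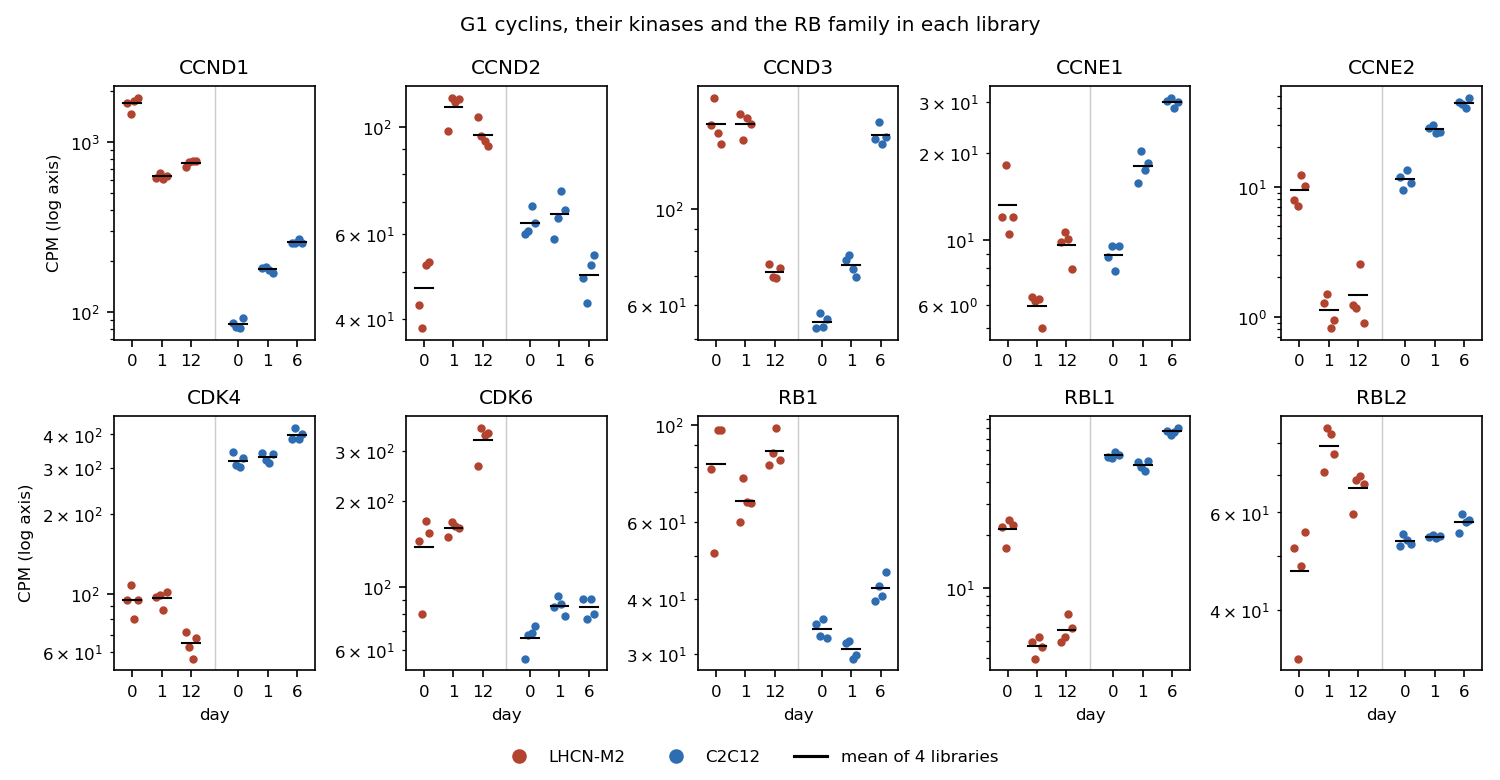
Level of each of the 10 genes in every library, as CPM on a log axis, by day, with LHCN-M2 (red) left of C2C12 (blue) in each panel; each point is 1 library and the line is the mean of 4. CCND1 falls in LHCN-M2 and climbs in C2C12, and CCNE2 and RBL1 drop steeply in LHCN-M2, where CCNE2 averages 1.13 CPM at day 1 and 9.35 CPM at day 0.

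The D cyclins did not move as a block. CCND1 (chromosome 11, 69641087 to 69654474, plus strand, GRCh38) is the D cyclin best known as a target of growth factor signalling. In LHCN-M2 it stood at 1703, 1470.2, 1756 and 1829 CPM at day 0, at 614, 659, 610.3 and 633 CPM at day 1, and at 719, 766, 771 and 772 CPM at day 12. All 8 later libraries lay below all 4 of day 0. The log2 fold change was -1.43 (SE 0.07, adjusted p = 3.59e-10, edgeR) at day 1 and -1.16 (SE 0.07, adjusted p = 2.53e-09, edgeR) at day 12, with a small rise between day 1 and day 12 (0.27, SE 0.07, adjusted p = 0.0071, edgeR). In C2C12, Ccnd1 stood at 86.6, 81.9, 80.7 and 92.5 CPM at day 0, at 183, 185, 178 and 171 CPM at day 1, and at 256, 256, 269 and 256 CPM at day 6. The 3 days did not overlap, and each step was upward. The log2 fold change at day 6 against day 0 was 1.60 (SE 0.05, adjusted p = 3.93e-16, edgeR), a 3.03-fold rise.

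CCND2 (chromosome 12, 4273772 to 4305350, plus strand), whose protein pairs with the same kinases, went against CCND1 in both lines. In LHCN-M2 it stood at 42.6, 38.2, 51.7 and 52.5 CPM at day 0, at 98.0, 115, 113 and 114 CPM at day 1, and at 105, 96.1, 93.6 and 91.2 CPM at day 12. Its rise, 1.25 (SE 0.10, adjusted p = 1.05e-07, edgeR) at day 1 and 1.06 (SE 0.10, adjusted p = 4.54e-07, edgeR) at day 12, left no overlap with day 0. In C2C12, Ccnd2 averaged 63.1 ± 3.78 CPM at day 0, 66.1 ± 6.26 at day 1 and 49.4 ± 4.73 at day 6 (SD, n = 4 each). It was not called at day 1 (0.07, SE 0.08) and fell by 0.35 on the log2 scale at day 6 (SE 0.08, adjusted p = 3.96e-04, edgeR).

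CCND3 (chromosome 6, 41934933 to 42050357, minus strand) is the D cyclin known for its induction when mouse myoblasts differentiate. In LHCN-M2 it stood at 156, 181, 149.7 and 142 CPM at day 0, at 166, 145, 162 and 157 CPM at day 1, and at 74.6, 69.8, 69.2 and 73.2 CPM at day 12. Days 0 and 1 overlapped (0.00, SE 0.08, adjusted p = 0.989, edgeR), and day 12 lay below both (log2 fold change -1.13 against day 0, SE 0.08, adjusted p = 1.72e-08, edgeR). C2C12 showed the opposite. In C2C12, Ccnd3 stood at 53.1, 57.6, 53.3 and 55.9 CPM at day 0, at 76.5, 78.2, 72.9 and 69.8 CPM at day 1, and at 145, 159, 141 and 147 CPM at day 6. It rose at every step, by 0.44 (SE 0.06, adjusted p = 1.83e-06, edgeR) at day 1 and by 1.43 (SE 0.06, adjusted p = 7.31e-15, edgeR) at day 6, without overlap.

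Dividing CPM by the gene length of the deposited tables gives the makeup of the D cyclins within a library. In LHCN-M2, CCND1 made up 91.2 ± 1.30% of the summed D cyclin level at day 0, 75.4 ± 1.08% at day 1 and 85.8 ± 0.953% at day 12. CCND2 took 1.68 ± 0.145%, 8.90 ± 0.547% and 7.39 ± 0.627% on the same days (SD, n = 4). In C2C12, Ccnd1 took 58.3 ± 1.88% at day 0, 71.0 ± 0.933% at day 1 and 71.3 ± 0.916% at day 6, and Ccnd2 shrank over the same days, with 21.6 ± 1.55%, 13.1 ± 1.34% and 6.80 ± 0.641%. The share of Ccnd3 in C2C12 was 20.1 ± 0.968% at day 0, 15.8 ± 0.433% at day 1 and 21.9 ± 1.24% at day 6. The day 6 share of Ccnd3 was not called against day 0 (1.72 percentage points, exact two-sided permutation test, p = 0.0571, adjusted p = 0.0709) although its level rose. On CPM not divided by gene length the difference was 5.40 points and was called (exact permutation test, adjusted p = 0.0381). Over the 36 comparisons of shares within the D cyclins and within the RB family, 26 passed, all of them at 0.0286, the smallest p that 4 libraries against 4 allow, with an adjusted p of 0.0396. The summed D cyclin level was 383 ± 30.1 CPM per kb at day 0, 173 ± 3.74 at day 1 and 183 ± 4.12 at day 12 in LHCN-M2, and 31.1 ± 1.08, 53.5 ± 1.57 and 77.1 ± 1.16 CPM per kb at days 0, 1 and 6 in C2C12.

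**Figure D2:**
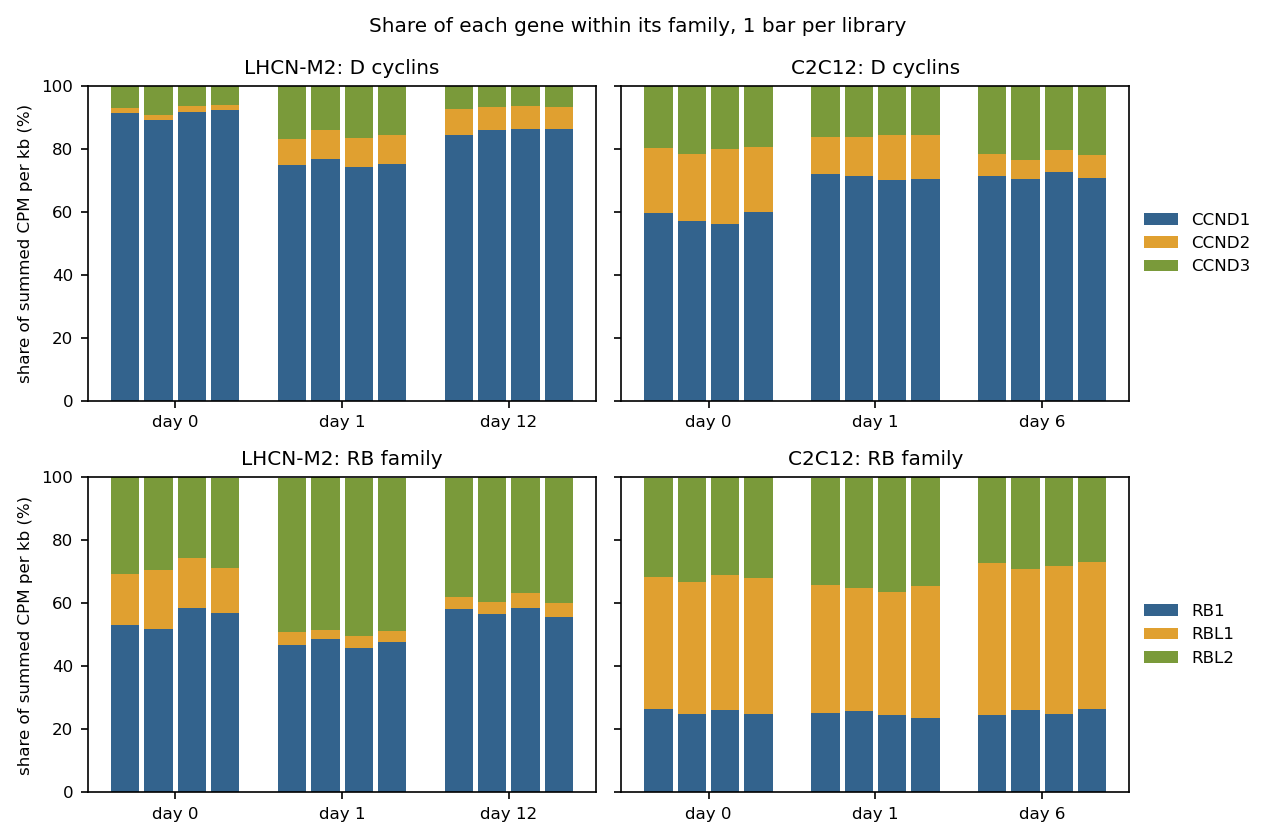
Share of each gene in the summed level (CPM per kb, in %) of the D cyclins (top) and of the RB family (bottom), 1 stacked bar per library, LHCN-M2 left and C2C12 right. CCND1 holds 91.2% of the D cyclin level in LHCN-M2 at day 0, and the RBL1 band narrows to 3.63% of the RB family at day 1 in LHCN-M2 while it stays near 40% or above in C2C12.

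The E cyclins, which carry cells over the border into S phase with their partner CDK2, fell in LHCN-M2 and rose in C2C12. CCNE2 in LHCN-M2 stood at 7.87, 7.13, 12.3 and 10.1 CPM at day 0, at 1.27, 1.49, 0.814 and 0.935 CPM at day 1, and at 1.24, 1.17, 2.55 and 0.900 CPM at day 12. The later libraries were all under the lowest of day 0, with a fall of 8.30-fold at day 1 (log2 fold change -3.05, SE 0.31, adjusted p = 1.03e-06, edgeR) and 6.40-fold at day 12 (-2.68, SE 0.31, adjusted p = 2.57e-06, edgeR). These levels rest on few reads, 39 to 67 counts per library at day 1. The span of the human gene, introns included, overlaps that of INTS8 on the other strand. INTS8 averaged 38.6 CPM. The strand setting of the counting is not given, so part of the CCNE2 count may be shared.

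CCNE1 in LHCN-M2 stood at 12.01, 18.1, 10.5 and 12.1 CPM at day 0, at 6.39, 6.19, 6.27 and 4.98 CPM at day 1, and at 9.90, 10.6, 10.1 and 7.94 CPM at day 12. It fell at day 1 (-1.14, SE 0.17, adjusted p = 4.22e-05, edgeR) and stood higher at day 12 than at day 1 (0.69, SE 0.17, adjusted p = 0.00379, edgeR). Days 12 and 0 overlapped, and the call between them (-0.45, SE 0.16, adjusted p = 0.03, edgeR) rested on replicate 2 of day 0, the 18.1 CPM library that stood apart. Without that library CCNE1 changed by -0.25 (adjusted p = 0.113, edgeR) and was not called, and the call was also lost without replicate 4 of day 12 (-0.37, adjusted p = 0.0975, edgeR) and when only the 2 groups were fitted (-0.42, adjusted p = 0.0640, edgeR). In C2C12 both genes climbed at each step. Ccne1 averaged 8.93 ± 0.840 CPM at day 0, 17.96 ± 1.86 at day 1 and 29.9 ± 1.01 at day 6, and Ccne2 averaged 11.3 ± 1.69, 27.6 ± 1.80 and 44.3 ± 3.29 CPM on those days (SD, n = 4 each). At day 6 against day 0 the rise was 3.34-fold for Ccne1 (1.74, SE 0.09, adjusted p = 9.29e-13, edgeR) and 3.91-fold for Ccne2 (1.97, SE 0.10, adjusted p = 1.74e-13, edgeR), and no library of day 6 overlapped one of day 0.

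The kinases went apart in LHCN-M2 and both rose in C2C12. CDK4 (chromosome 12, 57747727 to 57756013, minus strand) in LHCN-M2 stood at 95.0, 107, 80.4 and 94.5 CPM at day 0, at 97.4, 99.0, 87.0 and 102 CPM at day 1, and at 71.9, 63.0, 56.9 and 68.2 CPM at day 12. Days 0 and 1 overlapped and were not called apart (0.03, SE 0.10), and day 12 lay below day 0 (-0.54, SE 0.10, adjusted p = 2.74e-04, edgeR). These values may include reads of the added CDK4. The span of the CDK4 gene, introns included, shares 2485 bases with that of TSPAN31 on the other strand. TSPAN31 averaged 27.6 CPM. In C2C12, Cdk4 averaged 319 ± 19.1 CPM at day 0, 328 ± 14.2 at day 1 and 399 ± 18.5 at day 6, a rise of 1.25-fold at day 6 (0.32, SE 0.05, adjusted p = 1.99e-05, edgeR).

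CDK6 (chromosome 7, 92604921 to 92836594, minus strand), the sister kinase, became more abundant in LHCN-M2. It stood at 145, 80.4, 171 and 154 CPM at day 0, at 149, 169.5, 164 and 161 CPM at day 1, and at 265, 362, 342 and 348 CPM at day 12. All 4 libraries of day 12 lay above all 8 earlier ones (1.26 against day 0, SE 0.18, adjusted p = 2.05e-05, edgeR). The lowest library of day 0 and the lowest of day 12 are those that stood apart; without both, the change of CDK6 was 1.19 (SE 0.06). In C2C12, Cdk6 averaged 66.2 ± 7.18 CPM at day 0, 85.8 ± 5.55 at day 1 and 84.6 ± 6.99 at day 6 (SD, n = 4). It rose by day 1 (0.38, SE 0.08, adjusted p = 3.36e-04, edgeR) and days 6 and 1 overlapped.

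Per kb of gene length, CDK4 stood above CDK6 in both lines at day 0, and at the last day in C2C12 but not in LHCN-M2. The LHCN-M2 values of CDK4 may include reads of the added CDK4, whose length is not known here. In LHCN-M2 at day 12, CDK6 stood at 26.9 ± 3.56 CPM per kb and CDK4 at 20.5 ± 2.06, with overlapping libraries, while at day 0 CDK6 stood at 11.2 ± 3.22 and CDK4 at 29.8 ± 3.48. In C2C12, Cdk4 was the highest of the 10 genes on every day, at 98.2 ± 5.86, 101 ± 4.38 and 123 ± 5.70 CPM per kb at days 0, 1 and 6, and Cdk6 stayed between 4.73 and 6.14. The highest of the 10 in LHCN-M2 was CCND1 on every day, at 349.8 ± 32.1, 130.2 ± 4.59 and 157 ± 5.23 CPM per kb at days 0, 1 and 12, and no library of the next gene overlapped it. The lowest in LHCN-M2 was CCNE2 on every day. In C2C12 the lowest gene changed with the day: Ccne2 at day 0 (overlapping Ccne1), Rb1 at day 1 and Ccnd2 at day 6 (overlapping Cdk6).

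Within the RB family, RBL1 and RBL2 parted in LHCN-M2 while RB1 was not called at either step from day 0. RBL1 (chromosome 20, 36996349 to 37095995, minus strand) encodes p107, the family member made mainly in cycling cells. It stood at 22.0, 16.9, 24.2 and 22.7 CPM at day 0, at 4.95, 3.98, 5.29 and 4.63 CPM at day 1, and at 4.96, 5.26, 7.08 and 5.92 CPM at day 12. Every later library was far below day 0, with a fall of 4.55-fold at day 1 (-2.18, SE 0.15, adjusted p = 1.18e-08, edgeR) and 3.69-fold at day 12 (-1.88, SE 0.15, adjusted p = 3.96e-08, edgeR). In C2C12, Rbl1, whose promoter letters are shown above, stood at 55.3, 54.7, 58.8 and 56.4 CPM at day 0, at 51.5, 48.4, 46.1 and 52.5 CPM at day 1, and at 77.6, 72.9, 76.7 and 80.5 CPM at day 6. Day 6 lay above both earlier days (0.45 against day 0, SE 0.06, adjusted p = 7.36e-07, edgeR). The dip of Rbl1 at day 1 (-0.18, SE 0.06, adjusted p = 0.0129, edgeR) was lost without replicate 3 of day 1 (-0.11, adjusted p = 0.169, edgeR). It was also lost without replicate 2 of day 1, without replicate 1, 3 or 4 of day 0, without replicate 3 or 4 of day 6, and with no filter on low counts, at adjusted p-values of 0.0524 to 0.125.

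RBL2 (chromosome 16, 53433977 to 53491649, plus strand) encodes p130, the member that takes over in resting cells and forms the DREAM repressor complex with the MuvB core. In LHCN-M2 it stood at 51.8, 32.8, 48.1 and 55.4 CPM at day 0, at 70.8, 85.2, 83.2 and 76.6 CPM at day 1, and at 59.6, 68.6, 69.9 and 67.5 CPM at day 12. All later libraries lay above day 0 (0.75, SE 0.13, adjusted p = 2.48e-04 at day 1, and 0.50, SE 0.13, adjusted p = 0.00485 at day 12, edgeR). Without replicate 2 of day 0, its lowest library, RBL2 changed by 0.63 at day 1 (SE 0.08) and by 0.37 at day 12 (SE 0.08), both still called by edgeR. In C2C12, Rbl2 averaged 53.3 ± 1.19 CPM at day 0, 54.3 ± 0.316 at day 1 and 57.6 ± 1.88 at day 6, and was called at neither step from day 0, except at day 6 without replicate 1 of day 6 (0.14, adjusted p = 0.0493, edgeR).

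RB1 (chromosome 13, 48303726 to 48599436, plus strand) encodes the retinoblastoma protein itself. In LHCN-M2 it stood at 79.2, 51.0, 97.1 and 97.1 CPM at day 0, at 59.8, 75.7, 66.6 and 66.2 CPM at day 1, and at 80.9, 86.2, 98.4 and 82.9 CPM at day 12. The day 0 libraries spread the widest, and the lowest of them was again replicate 2. RB1 changed by -0.27 at day 1 (SE 0.16, adjusted p = 0.175, edgeR), and without that replicate it fell, by 0.43 on the log2 scale (SE 0.09, adjusted p = 4.80e-04, edgeR). At day 12 it changed by 0.10 with that library and by -0.059 without it, and was called in neither case. The span of the human gene, introns included, overlaps those of RCBTB2 (37.7 CPM) and LPAR6 (13.5 CPM) on the other strand. In C2C12, Rb1 averaged 34.1 ± 1.66 CPM at day 0, 30.7 ± 1.40 at day 1 and 42.3 ± 2.85 at day 6, with a rise at day 6 against day 0 (0.31, SE 0.07, adjusted p = 4.29e-04, edgeR). At day 1 Rb1 was not called (-0.15, adjusted p = 0.0679, edgeR), except when only genes of at least 1 CPM in 4 libraries were tested (-0.17, adjusted p = 0.0366, edgeR).

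The makeup of the RB family per kb followed these changes. In LHCN-M2 the sum of the 3 genes stood at 22.6 ± 5.13, 22.0 ± 1.80 and 23.5 ± 1.85 CPM per kb at days 0, 1 and 12, with overlapping libraries. The day 0 sums ran from 15.2 to 26.4, with the lowest in replicate 2, which stood apart and pulls that mean down. The likeness of days 0 and 1 in this sum therefore rests in part on that library. RBL1 took 16.2 ± 1.78% of the sum at day 0, 3.63 ± 0.617% at day 1 and 4.13 ± 0.385% at day 12, and RBL2 took 28.6 ± 2.16%, 49.1 ± 0.869% and 38.6 ± 1.55%. RB1 held 55.2 ± 3.10%, 47.3 ± 1.31% and 57.3 ± 1.41%. In C2C12, Rbl1 was the largest of the 3 on every day, with 42.5 ± 0.710%, 40.2 ± 1.41% and 46.7 ± 1.45% at days 0, 1 and 6, and Rb1 held 25.6 ± 0.850%, 24.8 ± 0.881% and 25.5 ± 0.995%, with no call between any of its days (SD, n = 4).

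**Figure D3:**
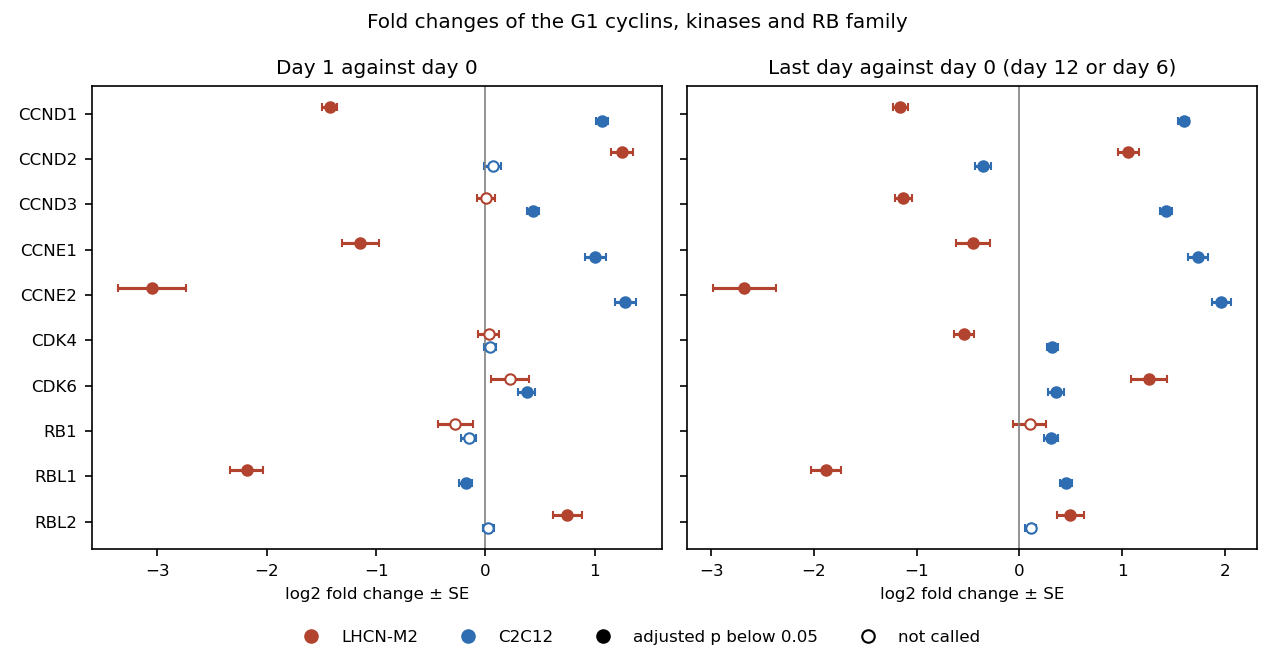
Log2 fold change with SE of each gene at day 1 (left) and at the last day (right) against day 0, LHCN-M2 (red) above C2C12 (blue) for each gene; filled points are called at an adjusted p below 0.05. CCND1, CCNE1, CCNE2 and RBL1 lie left of 0 in LHCN-M2, and CCND1, CCNE1 and CCNE2 lie right of 0 in C2C12.

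The difference between the lines was tested as an interaction on the 10952 symbols that passed the filter in both, in a joint edgeR fit whose values need not equal the plain difference of the fold changes above. For the last day against day 0, 9 of 10 members differed, 3 higher and 6 lower in LHCN-M2, where 70.5% of all symbols tested were called, 36% higher and 34.6% lower. CCNE2 differed by -4.51 (SE 0.30, adjusted p = 1.60e-12), CCND1 by -2.62 (SE 0.09, adjusted p = 4.61e-18), CCND3 by -2.42 (SE 0.10, adjusted p = 6.73e-17), RBL1 by -2.19 (SE 0.15, adjusted p = 2.50e-12) and CCNE1 by -2.05 (SE 0.19, adjusted p = 9.29e-10). CDK4 differed by -0.72 (SE 0.11), in counts that may include the added CDK4. The response was higher in LHCN-M2 for CCND2 (1.55, SE 0.14), CDK6 (1.04, SE 0.21) and RBL2 (0.53, SE 0.15), all called by edgeR. RB1 was not called (-0.067, SE 0.18, adjusted p = 0.759, edgeR). For day 1 against day 0, 2 members were higher and 5 lower, where 59.3% of symbols were called, 29.1% higher and 30.3% lower, and the kinases CDK4 and CDK6 and RB1 were not called. For the last day against day 1, 1 was higher and 2 were lower, where 56.1% of symbols were called, 30.1% higher and 26% lower. These were CDK6 (1.12, SE 0.21), CCND3 (-2.06, SE 0.09) and CDK4 (-0.78, SE 0.11). For CCND1 (-2.42), CCNE1 (-2.07), CCNE2 (-4.26) and RBL1 (-1.93) the difference was already there at day 1, and their change after day 1 was not called as different. CCND3 differed by -0.36 at day 1 and by -2.42 at the last day. Without replicate 2 of LHCN-M2 day 0, 6 members were called for the last day against day 1, with CCND1 (-0.20), CCND2 (0.30) and RBL2 (-0.27) added, while 7019 of 11004 symbols were called, against 6146 of 10952. In other settings CCND1 was called too, with library totals only (-0.24), in DESeq2 (-0.24) and without replicate 4 of C2C12 day 0 (-0.20). CCND2 was called without replicate 1 of C2C12 day 1 (0.35) or replicate 4 of C2C12 day 6 (0.34), and RBL1 without replicate 3 of LHCN-M2 day 12 (-0.38).

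Between day 12 and day 1 of LHCN-M2, 3 members rose, 2 fell and 5 were not called, where 39.8% of genes were called, 20.9% higher and 18.8% lower. Without replicate 2 of day 0, which is in neither of these groups but takes part in the filter, the scaling and the estimate of the spread, 8 were called, with CCND2 (-0.20), RB1 (0.37) and RBL2 (-0.26) added. The calls over all genes also grew in that fit, to 9134 of 18782 genes, against 7247 of 18214. In C2C12, 7 rose, 1 fell and 2 were not called between day 6 and day 1, where 61.4% of genes were called, 32.8% higher and 28.6% lower.

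E2F target genes of S phase, which the RB family restrains, went the way of the E cyclins in each line. Of the 20 genes on this list, 20 fell and 0 rose in LHCN-M2 at day 1 (median log2 fold change -2.27, against 0.03 over all genes) and again at day 12 (median -2.35, against -0.01), under every setting run for those comparisons. Over all genes tested, 23.5% were lower at day 1 and 27.5% at day 12. RRM2, the small subunit of ribonucleotide reductase, averaged 9.53 CPM at day 12 and 106 CPM at day 0 (-3.48, SE 0.21, adjusted p = 2.34e-09, edgeR). ORC1, a subunit of the origin recognition complex, averaged 1.39 CPM at day 12 and 14.7 CPM at day 0 (-3.41, SE 0.24, adjusted p = 1.34e-08, edgeR). In C2C12, 11 rose and 4 fell at day 1 (median 0.18, against -0.01), and 18 rose and 1 fell at day 6 against day 0 (median 0.70, against -0.03). Over all C2C12 genes tested, 25.9% were higher and 24.4% lower at day 1, and 33.1% and 32.5% at day 6. Cdc6, which loads the replicative helicase, averaged 41.5 CPM at day 6 and 10.4 CPM at day 0 (1.99, SE 0.08, adjusted p = 9.28e-15, edgeR), and Rrm2 averaged 384 and 98.9 CPM on those days (1.96, SE 0.06, adjusted p = 3.63e-17, edgeR). The interaction at the last day was lower in LHCN-M2 for all 20 (median -2.85, against 0.01), where 70.5% of all symbols tested were called, 34.6% lower.

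The summed level of 6 markers of proliferating cells (MKI67, TOP2A, CCNB1, PLK1, AURKB and BUB1, none of them at 0 counts in any group) fell with these genes in LHCN-M2, where all 6 were lower at day 1 and at day 12 against day 0. Over all LHCN-M2 genes tested, 23.5% were lower at day 1 and 27.5% at day 12. In LHCN-M2 the libraries of day 0 lay between 883 and 1237 CPM, those of day 1 between 84.8 and 105, and those of day 12 between 184 and 205. In C2C12 the libraries of day 0 lay between 1429 and 1488 CPM, those of day 1 between 984 and 1060, and those of day 6 between 1431 and 1643. Against day 0, the C2C12 markers did not follow Ccne1, Ccne2 and the E2F targets. At day 1 against day 0, 0 of the 6 rose and 6 fell, where 24.4% of genes were lower. At day 6 against day 0, 2 rose, 1 fell and 3 were not called, where 33.1% of genes were higher and 32.5% lower. The sums of these days overlapped. From day 1 to day 6 the C2C12 markers rose with those genes, 6 of 6 higher (median 0.55), where 32.8% of genes were higher. Of the 20 E2F targets, 17 rose and 2 fell over that step, where 28.6% of genes were lower. In LHCN-M2, 5 of the 6 markers rose and 0 fell from day 1 to day 12, where 20.9% of genes were higher and 18.8% lower. In such bulk samples, fewer cycling cells and less RNA per cell cannot be told apart, and the part of cell makeup in the changes of CCNE2, RBL1 and the E2F targets was not tested.

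The E2F factors and their DP partners were mixed. Over all genes tested, 27.1% were higher and 27.5% lower in LHCN-M2 at day 12, and 33.1% and 32.5% in C2C12 at day 6. In LHCN-M2 at day 12, 3 of 10 rose and 5 fell (median -0.54, against -0.01). E2F1, an activator of S-phase genes, averaged 9.90 CPM at day 12 and 52.7 CPM at day 0 (-2.41, SE 0.14, adjusted p = 8.41e-10, edgeR), and E2F2 averaged 0.402 and 3.11 CPM (-2.93, SE 0.58, adjusted p = 5.18e-04, edgeR). In C2C12 at day 6, 7 of 10 rose and 1 fell (median 0.56, against -0.03), with E2f2 at 29.1 CPM at day 6 and 3.55 CPM at day 0 (3.03, SE 0.09, adjusted p = 7.17e-17, edgeR) and E2f8, a repressive member, at 26.7 and 13.3 CPM (1.00, SE 0.09, adjusted p = 2.32e-09, edgeR). Of the 7 genes of the MuvB core and its partners, 1 rose and 5 fell in LHCN-M2 at day 12 (median -0.61). In C2C12 at day 6, 6 of them rose and 1 fell (median 0.46). FOXM1, which drives mitotic genes with MuvB, averaged 12.7 CPM at day 12 and 87.2 CPM at day 0 in LHCN-M2 (-2.78, SE 0.13, adjusted p = 9.03e-11, edgeR), and MYBL2 averaged 4.69 and 29.7 CPM (-2.66, SE 0.19, adjusted p = 1.69e-08, edgeR). The C2C12 examples were Lin9, at 27.3 CPM at day 6 and 17.9 CPM at day 0, and Lin54, at 37.1 and 25.0 CPM.

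**Figure D4:**
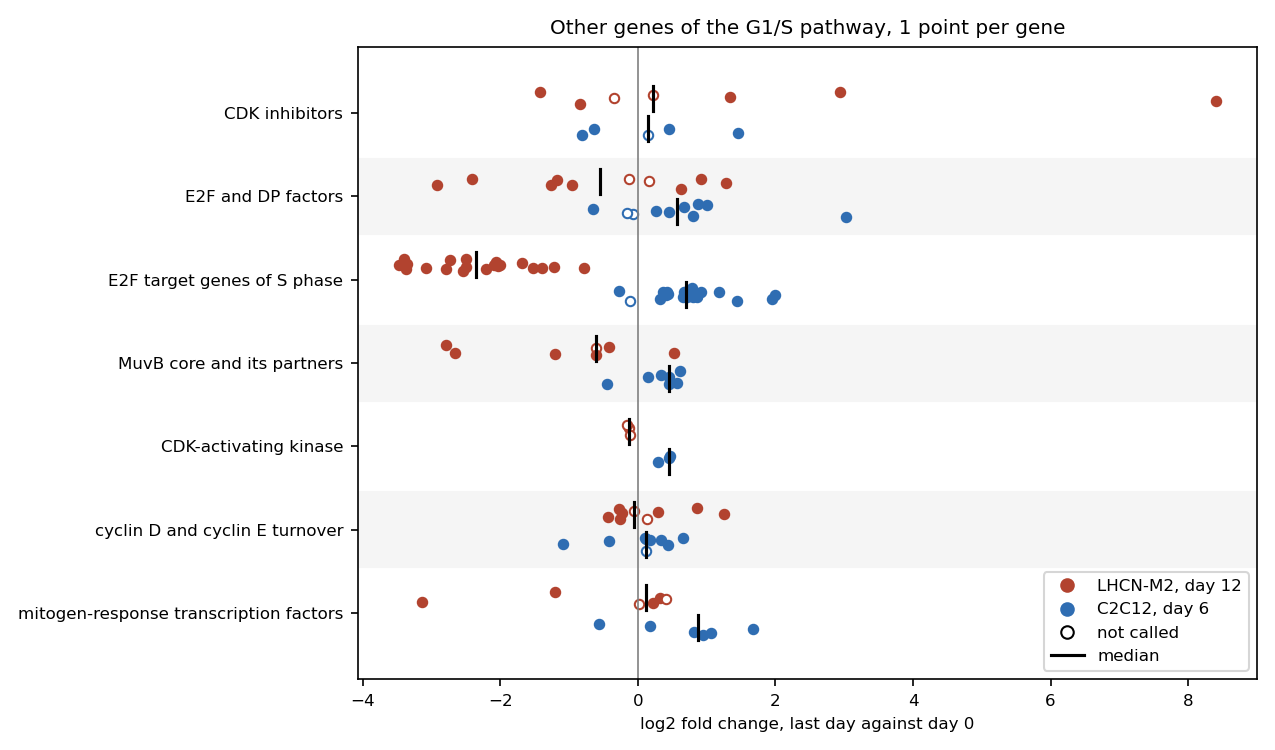
Log2 fold change of the last day against day 0 for the other genes of the G1/S pathway, 1 point per gene, grouped by list, with LHCN-M2 day 12 (red) above C2C12 day 6 (blue); open points are not called and the black bar is the median of the list. All 20 E2F target genes of S phase lie left of 0 in LHCN-M2 (median -2.35), and 18 of 20 are called to the right of 0 in C2C12 (median 0.70).

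Of the CDK inhibitors, which oppose the G1 kinases, CDKN1A rose in both lines. In LHCN-M2 at day 12, 3 of 7 rose and 2 fell (median 0.22, against -0.01), where 27.1% of genes were higher and 27.5% lower. CDKN1C, which encodes p57, averaged 234 CPM at day 12 and 0.689 CPM at day 0 (8.41, SE 0.17, adjusted p = 1.67e-14, edgeR). CDKN2B, which encodes p15, a specific inhibitor of CDK4 and CDK6, averaged 291 CPM at day 12 and 38.0 CPM at day 0 (2.94, SE 0.07, adjusted p = 1.32e-13, edgeR), and CDKN1A, which encodes p21, averaged 2254 and 893 CPM (1.34, SE 0.07, adjusted p = 3.68e-10, edgeR). CDKN2C, another inhibitor of CDK4 and CDK6, fell (-1.42, SE 0.12, adjusted p = 1.25e-07, edgeR), as did CDKN2D (-0.85, SE 0.18, adjusted p = 0.00107, edgeR). In C2C12, 5 of the 7 passed the filter, of which 2 rose and 2 fell at day 6, where 33.1% of genes were higher and 32.5% lower. Cdkn1a averaged 309 CPM at day 6 and 113 CPM at day 0 (1.45, SE 0.06, adjusted p = 3.66e-15, edgeR), and Cdkn1b, which encodes p27, averaged 96.8 and 169 CPM (-0.81, SE 0.05, adjusted p = 1.89e-11, edgeR). Cdkn2d also rose, with 66.9 CPM at day 6 and 49.1 CPM at day 0 (0.45, SE 0.06, adjusted p = 1.86e-06, edgeR). Cdkn1c was called lower at low levels with overlapping libraries, at 1.97 and 3.08 CPM (-0.64, SE 0.27, adjusted p = 0.0401, edgeR), and Cdkn2c was not called, at 57.5 and 51.8 CPM. Cdkn2a and Cdkn2b had 0 counts in C2C12 on every day, which allows at most 0.0209 CPM over the group at day 0, 0.0178 at day 1 and 0.0197 at day 6, counting error only. In LHCN-M2, CDKN2A averaged 253 CPM at day 12 and 323 CPM at day 0, and CDKN1B averaged 27.7 and 23.9 CPM, and neither was called.

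Of the 3 subunits of the CDK-activating kinase, 0 were called in LHCN-M2 at day 12 and 3 rose in C2C12 at day 6, with Ccnh at 0.46 (SE 0.07) and Cdk7 at 0.46 (SE 0.06) on the log2 scale. Over all genes tested, 54.6% were called in LHCN-M2 at day 12 and 65.6% in C2C12 at day 6. Of 9 genes for cyclin D and cyclin E turnover, 3 rose and 4 fell in LHCN-M2 (median -0.06), and 5 rose and 2 fell in C2C12 (median 0.12). With so many genes called, these counts say little about the list. FBXW7, the receptor that hands cyclin E to the proteasome, averaged 40.4 CPM at day 12 and 17.1 CPM at day 0 in LHCN-M2 (1.24, SE 0.09, adjusted p = 1.26e-08, edgeR), and DDB1, which belongs to a ubiquitin ligase, averaged 635 and 349 CPM (0.86, SE 0.07, adjusted p = 4.70e-08, edgeR). In C2C12, Fbxo31, which marks cyclin D1 for breakdown, averaged 9.63 CPM at day 6 and 20.5 CPM at day 0 (-1.09, SE 0.09, adjusted p = 1.28e-09, edgeR), and Skp1, an adaptor of F-box ligases, averaged 259.8 and 165 CPM (0.66, SE 0.06, adjusted p = 1.21e-08, edgeR). Of 6 transcription factors of the mitogen response, 2 rose and 2 fell in LHCN-M2 (median 0.11), and 5 rose and 1 fell in C2C12 (median 0.88). FOSL1, an AP-1 subunit, averaged 22.9 CPM at day 12 and 201 CPM at day 0 in LHCN-M2 (-3.14, SE 0.11, adjusted p = 3.21e-12, edgeR), and MYC averaged 19.2 and 44.4 CPM (-1.21, SE 0.10, adjusted p = 7.41e-08, edgeR). In C2C12, Fosl1 averaged 10.7 CPM at day 6 and 3.33 CPM at day 0 (1.68, SE 0.14, adjusted p = 1.58e-09, edgeR), and Fos averaged 2.68 and 1.28 CPM (1.06, SE 0.28, adjusted p = 0.00222, edgeR).

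Genes whose log2 CPM followed a member most closely over the 12 libraries of a line, among 9673 human and 9730 mouse genes with a mean of at least 10 CPM, are given next. In LHCN-M2, those nearest to CCND1 were DIAPH3 (Pearson r = 0.998), KLF6 (0.997) and FANCI (0.996). Those nearest to CCND3 were SRPX (0.992), FBLN1 (0.989) and EHMT2 (0.989), and those nearest to RB1 were PPP1R15B (0.978), FAM126A (0.968) and ZNF41 (0.956). Over the 10 libraries left without the 2 that stood apart, a check added after the data were seen, the values for RB1 were 0.967, 0.958 and 0.932. In C2C12, Sox11 (0.997), Tafa5 (0.996) and Tubb3 (0.996) lay nearest to Ccnd1. The sum of 4 neural and glial markers, with Sox10 at 0 counts on every day, ran over 36.3 to 39.0, 121 to 137 and 353 to 366 CPM in C2C12 at days 0, 1 and 6. Tubb3 is 1 of these 4 and alone averaged 17.5, 96.5 and 268 CPM, so the climb of the sum is not a separate observation. The part of neural genes in this likeness was not tested. Tnfrsf23 (0.996), Pdlim3 (0.996) and Dynap (0.995) lay nearest to Ccnd3, and Eme1 (0.982), Fam136a (0.980) and Tmem65 (0.975) nearest to Rb1. The 12 points of a line are 3 days of 4 libraries, so these values mostly describe the shape over the days.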

How the data were processed

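The 24 libraries come from polyadenylated RNA. The authors deposited whole-number counts per gene, not normalized, with a gene length column. The submitters' processing notes name HISAT2 2.2.1, featureCounts 2.0.6, StringTie 2.2.3 and fastp, with the builds mm10 and GRCh38 (hg38). Annotation and strand setting: not given in the sources used here, so overlapping genes may share reads. Overlaps are those of whole gene spans, and whether exons overlap was not checked. In GENCODE M21, 1 of the 10 mouse members has the deposited start and end, so mouse gene coordinates are left out. From the deposited counts, each line was fitted with edgeR 4.0.16 (R 4.3.3): filterByExpr (18214 LHCN-M2 and 17065 C2C12 genes), TMM scaling, the quasi-likelihood test over 12 libraries with 1 coefficient per day, and Benjamini-Hochberg adjustment over all genes tested, with a threshold of 0.05. SE is the log2 fold change over the root of the F statistic. CPM uses TMM-scaled totals. The scripts were tested on simulated data. Shares were compared by exact two-sided permutation tests. The members, gene lists and naming rules (for each list and line, the 2 called genes with the largest change among those averaging at least 1 CPM; every CDK inhibitor that passed; for likeness the 3 nearest genes) were chosen with earlier results of these data known. The lines were joined by symbol, which is not an orthology table. Alternatives were DESeq2 1.42.0, RLE or no scaling, other filters, only the groups compared, the replicate block and leaving out libraries.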

Additional observations from a re-analysis of the deposited data

Results flagged for a closer look

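In 4 of the 60 groups of 4 libraries, 1 library of a member lay far from the others by Dixon's 95% limit, where chance gives about 1 in 20. CCND1 in C2C12 at day 6 stood at 269 CPM in replicate 3, against 255.6 to 256.2 CPM in the others. CCND1 in LHCN-M2 at day 12 stood at 719 CPM in replicate 1, a library that stood apart, against 765.6 to 771.9 CPM. CCND2 in LHCN-M2 at day 1 stood at 98.0 CPM in replicate 1, against 112.7 to 115.2 CPM. CCNE1 in LHCN-M2 at day 1 stood at 4.98 CPM in replicate 4, against 6.19 to 6.39 CPM.

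The change of 19 member comparisons differed between LHCN-M2 and C2C12 by the interaction term of the joint edgeR fit (LHCN-M2 minus C2C12, log2). At day 1 against day 0 the difference was -2.42 for CCND1, 1.26 for CCND2, -0.36 for CCND3, -2.07 for CCNE1, -4.26 for CCNE2, -1.93 for RBL1 and 0.79 for RBL2. At the last day against day 0 it was -2.62 for CCND1, 1.55 for CCND2, -2.42 for CCND3, -2.05 for CCNE1, -4.51 for CCNE2, -0.72 for CDK4, 1.04 for CDK6, -2.19 for RBL1 and 0.53 for RBL2. At the last day against day 1 it was -2.06 for CCND3, -0.78 for CDK4 and 1.12 for CDK6. Most symbols tested also differed between the lines, at 59.3%, 70.5% and 56.1% in these 3 comparisons.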

How the results depend on the processing

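Of 2040 fold changes of members under other settings, 1977 kept direction and call, 25 gained a call, 12 lost one and 26 changed sign; those that lost a call were CCNE1 at day 12 against day 0 in LHCN-M2 and RBL1 at day 1 in C2C12. The changes of sign were all in results that were not called, and the cause was not tested. Over fits without 1 library, these ran from -0.045 to 0.095 for CCND3 and from -0.038 to 0.12 for CDK4 (LHCN-M2, day 1 against day 0), from -0.059 to 0.20 for RB1 (day 12 against day 0) and from -0.031 to 0.56 for CCNE2 (day 12 against day 1). The differences between lines ran from -0.26 to 0.083 for CDK6 and from -0.21 to 0.089 for RB1 at day 1, from -0.23 to 0.068 for RB1 at the last day, and, for the last day against day 1, from -0.052 to 0.11 for CCNE1 and from -0.084 to 0.041 for RB1. DESeq2 gave 0.014 for RB1 at day 1 and -0.014 for CCNE1 at the last day against day 1, and library totals alone gave -0.010 for that CCNE1 value. Without replicate 2 of day 0 and replicate 1 of day 12 of LHCN-M2 together, RB1 at day 12 against day 0 was -0.0090. On CPM not divided by length, the share of RB1 at day 6 against day 0 in C2C12 moved by 0.16 percentage points, and that of CCND3 by 5.40, which was then called.

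At day 12 against day 1 in LHCN-M2, 5 members were called, against 8 with only the 2 groups, 9 without both libraries that stood apart, and 5 to 8 without 1 library; calls over all genes were 7247 of 18214 in the reported fit, 9022 of 17539 with only the 2 groups and 9078 of 18583 without both. For the last day against day 1 between lines, 3 were called, and 3 to 6 without 1 library, where 6 came without replicate 2 of LHCN-M2 day 0. The counts of E2F targets, recomputed after the data were seen, stayed within 1.5 times. Replicate numbers did not pair samples (correlations of same-numbered deviations from -0.10 to 0.091, 0 of 12 over 0.1 in each line), and the replicate block changed no call of a member's fold change, with 6 and 9 members called at day 1 and day 12 against day 0 in LHCN-M2 and 6 and 9 at day 1 and day 6 in C2C12. Shares with the block, or without 1 library, cannot reach p-values below 0.125 and 0.0571 (permutation).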
